A study of Mus musculus with 359 samples.

Results

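Each library of the feed experiment carries a number in its name, and the numbers run in blocks of 8, 1 block for each dose and sex. The place of a library was its position in its block, from 1 to 8, and gene expression in lung was compared between places 6-8 and places 1-3. All named libraries of lung at day 5 (59) and at day 28 (60) were used, of the 359 libraries of the series. The labels give neither an order of collection nor a time of day, so the clock genes were the only reading of time. The mice were B6C3F1 hybrids of both sexes given 4-methylimidazole (4-MEI), a small ring compound found in caramel colours, in feed at 0 (vehicle), 150, 300, 1250 or 2500 ppm. At day 5 there were 59 lung libraries with numbers 81 to 160, of which 25 held places 1-3, 14 held places 4-5 and 20 held places 6-8. At day 28 there were 60 with numbers 161 to 240, of which 21 held places 1-3, 17 held places 4-5 and 22 held places 6-8. The number of libraries was 6 for each dose and sex, and 5 for females on 2500 ppm at day 5. Sex is given as the suffix of the title, _M or _F, and the sources used here give no ages. Day 5 libraries are named below as in their labels (LUNG_098) and day 28 libraries by their number. Places were compared within a dose and sex, since the order between blocks cannot be told apart from dose and sex.

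The mammalian clock is a loop of transcription factors that turns once a day in nearly every cell, the cells of the lung included. ARNTL (also called BMAL1) pairs with CLOCK or NPAS2, binds E-box sequences and switches on the Per, Cry and Nr1d genes, whose proteins shut the pair down again. NR1D1 and NR1D2 repress Arntl through ROR elements, where the ROR proteins activate it, and the factors DBP, TEF and HLF carry the rhythm to further genes through D-box sequences, at which NFIL3 competes with them. In tissues of mice kept in light and dark, Arntl is known to fall and Dbp and the Per genes to rise through the light phase.

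The promoters below hold letter patterns of the kind the loop is known to use, and binding to them was not tested. The promoters were chosen because they hold such a pattern and belong to genes that moved in opposite directions. They are RefSeq windows of 300 bases around a transcription start (build GRCm38.p6), 5′ to 3′ on the gene's strand, and the capitals mark the pattern. Ciart, Per1 and Tef, which were higher at late places, hold the E-box CACGTG, Ciart 3 times. Arntl, at the second of its starts, and Nfil3, which were lower at late places, hold the ROR element TAGGTCA, in Nfil3 on the other strand, where it reads TGACCTA.
Ciart, chr3:95882179-95882478, minus strand: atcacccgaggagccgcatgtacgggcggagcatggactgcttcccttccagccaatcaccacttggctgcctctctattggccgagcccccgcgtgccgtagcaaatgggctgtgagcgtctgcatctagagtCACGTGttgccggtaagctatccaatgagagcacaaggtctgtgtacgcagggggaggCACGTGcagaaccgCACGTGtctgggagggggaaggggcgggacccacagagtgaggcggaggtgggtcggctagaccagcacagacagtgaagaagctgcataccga
Per1, chr11:69098699-69098998, plus strand: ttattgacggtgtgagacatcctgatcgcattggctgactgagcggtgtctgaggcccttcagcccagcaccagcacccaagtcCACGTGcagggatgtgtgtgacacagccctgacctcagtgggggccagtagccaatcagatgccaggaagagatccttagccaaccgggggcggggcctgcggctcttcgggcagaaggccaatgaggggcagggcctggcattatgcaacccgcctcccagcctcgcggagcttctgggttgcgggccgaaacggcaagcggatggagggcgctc
Tef, chr15:81802423-81802722, plus strand: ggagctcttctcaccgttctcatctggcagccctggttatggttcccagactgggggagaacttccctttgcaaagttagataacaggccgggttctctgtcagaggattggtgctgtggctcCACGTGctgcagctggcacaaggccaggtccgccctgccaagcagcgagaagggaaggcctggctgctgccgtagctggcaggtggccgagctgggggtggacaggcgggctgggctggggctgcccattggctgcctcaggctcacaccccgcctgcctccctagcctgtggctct
Arntl, chr7:113207261-113207560, plus strand: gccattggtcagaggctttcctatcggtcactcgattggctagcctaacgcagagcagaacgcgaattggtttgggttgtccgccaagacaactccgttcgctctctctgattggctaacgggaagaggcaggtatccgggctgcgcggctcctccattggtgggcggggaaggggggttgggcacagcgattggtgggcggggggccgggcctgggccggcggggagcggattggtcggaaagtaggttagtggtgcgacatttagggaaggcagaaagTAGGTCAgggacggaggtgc
Nfil3, chr13:52980990-52981289, minus strand: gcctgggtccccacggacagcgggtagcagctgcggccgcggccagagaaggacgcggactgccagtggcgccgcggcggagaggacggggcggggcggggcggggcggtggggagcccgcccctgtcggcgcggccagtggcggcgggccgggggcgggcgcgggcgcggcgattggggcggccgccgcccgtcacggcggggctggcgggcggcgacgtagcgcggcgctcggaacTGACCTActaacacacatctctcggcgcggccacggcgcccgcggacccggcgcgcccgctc

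Of 27 clock and leading genes looked up, 22 had a promoter window. CACGTG also stood in Cry1 and Bhlhe41 and TAGGTCA in Fam124b, and Per3 held the D-box TTANGTAA 2 times. In all, 5 of these genes held CACGTG and 3 held TAGGTCA. The windows of Dbp, Hlf, Cry2 and Nr1d2, which also rose, held no CACGTG. Those of Clock and Npas2, which also fell, held no TAGGTCA. Over all 32851 windows, searched on both strands, 7.15% held CACGTG, 2.606% TAGGTCA and 2.323% TTANGTAA. Among genes that were higher at late places on both days, 18.48% of 395 with a window held CACGTG, and 14.19% of 444 genes that were lower, against 10.95% of the 11697 genes tested on both days. TAGGTCA stood in 2.532% of the genes that were higher and 4.505% of those that were lower, against 2.334%, and TTANGTAA in 4.304% and 2.027%, against 2.001%. These are counts of letters, with no test. In all, 7 patterns were tried on these promoters and 3 kept after it was seen which clock genes they matched. The others were TTATGTAA (0.9376% of all windows), AGGTCA (16.26%) and NAGGTCA (16.21%), which overlap the ones kept, and GGGTCA (13.7%), a separate pattern.

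Library totals were 8081043 to 21473135 counts at day 5 and 11692340 to 18207432 at day 28, and their medians at places 1-3 and 6-8 were 15472000 and 15682900 at day 5 and 14946800 and 14945700 at day 28. Levels are given as CPM (counts scaled to a common library total, with TMM factors), and changes as log2 fold changes, places 6-8 minus places 1-3, from a model with 1 mean for each dose and sex. A gene was called when its p-value adjusted over all genes tested was under 0.05. LUNG_098 and LUNG_139 at day 5 and library 217 at day 28 lay farthest from the fitted values, and LUNG_090 and LUNG_114 at day 5 and library 176 at day 28 held genes of skeletal muscle or keratin. The labels do not say that the numbers are separate animals, and if they are not, the p-values measure technical spread.

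The marker genes moved in opposite directions with place on both days. Arntl (chromosome 7, 113207465 to 113314126), the partner on which the activating arm depends, ran from 6.52 to 34.7 CPM with a median of 17.4 in the 25 libraries of places 1-3 at day 5, and from 1.80 to 4.87 with a median of 3.47 in the 20 of places 6-8. No late library reached the lowest early one. Its log2 fold change was -2.44 (SE 0.17, adjusted p = 2.09e-15 by edgeR's quasi-likelihood test), a 5.42-fold fall. At day 28 Arntl ran from 3.64 to 32.8 CPM (median 15.3) at places 1-3 and from 2.15 to 5.57 (median 3.17) at places 6-8, and fell by 2.45 on the log2 scale (SE 0.19, adjusted p = 3.01e-14). Those groups overlapped through 1 early library, number 194 (M, 300 ppm, place 2). Within each of the 10 groups of dose and sex, on both days, every library of places 6-8 was below every library of places 1-3. Some of these groups had only 1 library at places 1-3 or at places 6-8. In males on 300 ppm at day 28 the gap was narrow, with 3.64 CPM in library 194 and 3.60 in the late library 199.

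Dbp (chromosome 7, 45705088 to 45710203), the D-box activator, ran from 14.6 to 135.4 CPM (median 61.7) at places 1-3 of day 5 and from 142.3 to 244 (median 193) at places 6-8, again with no overlap. It rose by 1.59 on the log2 scale (SE 0.16, adjusted p = 9.43e-11, 3.003-fold). At day 28 the early libraries ran from 22.6 to 181 CPM (median 60.6) and the late ones from 125.6 to 262 (median 176), a rise of 1.57 (SE 0.18, adjusted p = 5.50e-09). Dbp was higher in 10 of 10 groups on both days, and only the males fed 300 ppm for 28 days, the group of library 194, overlapped.

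**Figure D1:**
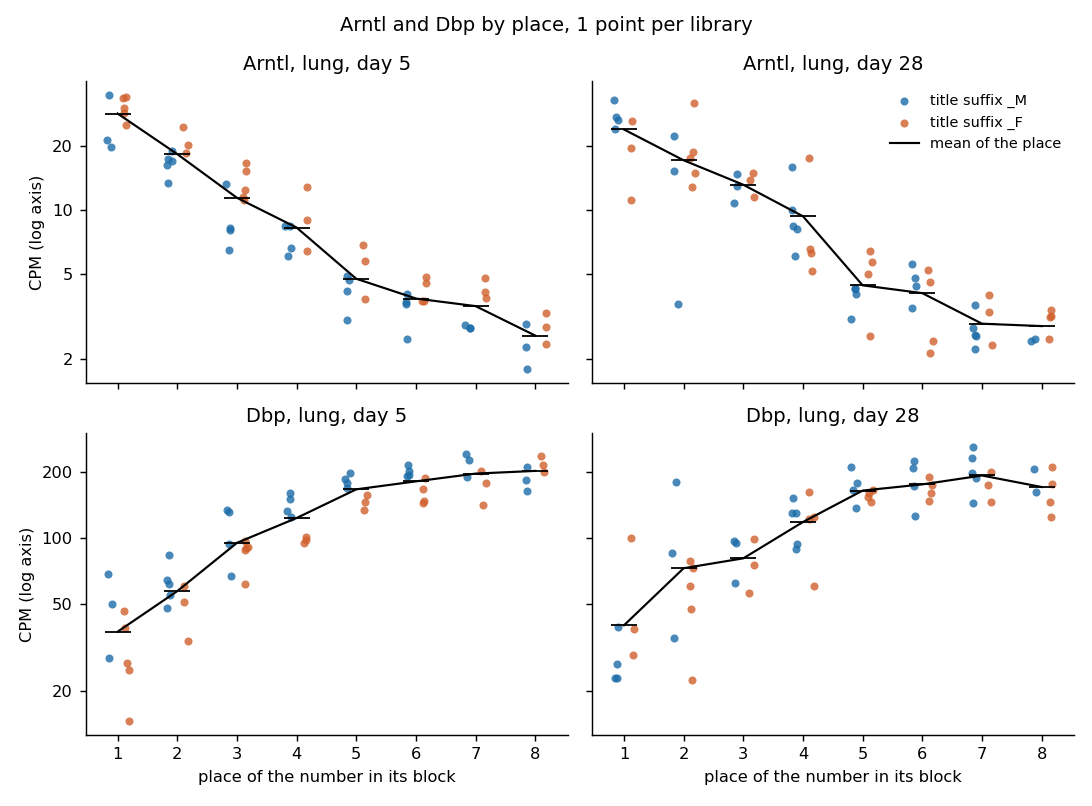
CPM (log axis) of Arntl (top) and Dbp (bottom) in each lung library, by place in the block of 8 numbers, at day 5 (left) and day 28 (right). Points are libraries coloured by the suffix of the title and bars joined by a line are means of a place. Arntl falls from a mean of 28.3 CPM at place 1 to 2.58 at place 8 at day 5 and Dbp rises from 37.4 to 203, and library 194 stands apart at place 2 of day 28.

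Both genes moved over several places rather than in a single jump. The mean of Arntl at day 5 was 28.3 CPM at place 1, 18.3 at place 2, 11.4 at place 3, 8.28 at place 4, 4.77 at place 5, 3.85 at place 6, 3.55 at place 7 and 2.58 at place 8. At day 28 it went from 23.9 at place 1 over 9.35 at place 4 to 2.86 at place 8. In CPM, most of the fall lay before place 5, and the ranges of neighbouring late places overlapped. On the log2 scale the fitted level of Arntl against place 1 was -1.71 at place 4 and -3.42 at place 8 of day 5. At day 28 these were -1.46 and -3.14. Dbp at day 5 had means of 37.4 CPM at place 1, 57.4 at place 2, 95.3 at place 3, 123.8 at place 4 and 167 at place 5, and was between 182 and 203 from place 6 on. At day 28 it went from 40.03 CPM at place 1 to 194 at place 7 and 172 at place 8. The log2 ratio of Dbp to Arntl, whose level depends on the genes' lengths but whose change does not, went from 0.29 (SD 0.99, n = 8) at place 1 to 6.32 (SD 0.23, n = 6) at place 8 of day 5. At day 28 it went from 0.61 (SD 1.25, n = 7) to 6.05 (SD 0.49, n = 8) at place 7 and 5.90 (SD 0.41, n = 6) at place 8.

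In the activating arm, 3 of 5 genes fell on both days, where 14.7% of all 15675 genes tested were called at day 5 (7.52% higher and 7.15% lower) and 14.4% of 15646 at day 28 (6.69% higher and 7.75% lower). Npas2, a partner of ARNTL in place of CLOCK, had medians of 4.62 CPM at places 1-3 and 0.876 at places 6-8 of day 5 and fell by 2.36 on the log2 scale (SE 0.23), and by 1.86 (SE 0.20) at day 28. Clock itself fell by 0.71 (SE 0.06) and 0.54 (SE 0.08), from medians of 105.9 to 63.9 CPM and 99.7 to 63.1. Of the partners, Npas2 thus had the larger change and Clock the smaller. Rora, an activator of Arntl, rose by 0.20 (SE 0.06, adjusted p = 0.0246) and 0.42 (SE 0.07), in 9 of 10 groups on both days.

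In the repressing arm, 9 of 10 genes rose on both days and none fell. Per2, which blocks the activating pair together with the CRY proteins, had the highest rise, 1.41 (SE 0.15) at day 5 and 1.54 (SE 0.16) at day 28, from medians of 29.9 to 97.5 CPM and 35.5 to 112.1. Per3 rose by 1.34 (SE 0.11) and 1.36 (SE 0.12), and Per1, the Per gene that also answers to hormones and other acute signals, by 1.16 (SE 0.18) and 1.23 (SE 0.20). Per1 spread most among them, from 68.8 to 266 CPM within places 6-8 of day 5, so its early and late libraries overlapped widely. Ciart, which represses the activating pair, rose by 1.29 (SE 0.12) and 1.40 (SE 0.15), from medians of 6.36 to 18.8 CPM at day 5. Of the E-box competitors, Bhlhe41 rose by 1.18 on both days (SE 0.10 and 0.12) and Bhlhe40 by 0.44 and 0.41 (SE 0.07 on both). Cry1, the stronger repressor of the CRY pair, rose by 0.88 (SE 0.07) and 1.03 (SE 0.10), and Cry2 by 0.37 (SE 0.04) and 0.41 (SE 0.05). Nr1d2 rose by 0.71 (SE 0.08) and 0.85 (SE 0.09).

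Nr1d1, the repressor of Arntl, was the 1 member not called, with 0.21 (SE 0.08, adjusted p = 0.0784) at day 5 and 0.05 (SE 0.10, adjusted p = 0.768) at day 28. Its mean rose from 276 CPM at place 1 to 431 at place 5 and came back to 344 at place 8 of day 5. At day 28 it went from 267 over 408 at place 4 to 276 at place 8. With place in 8 levels, a fit added after these values were seen, Nr1d1 differed among places on both days (adjusted p = 6.60e-05 and 0.00290, edgeR). Its end overlaps that of Thra on the other strand, and reads of the pair can be told apart only if the counting used strand, which is not given in the sources used here.

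Of the D-box factors, all 3 activators rose and the antagonist fell on both days. Tef went from 184 to 411 CPM (median 266) at places 1-3 to 454 to 716 (median 552) at places 6-8 of day 5, with no overlap, and rose by 1.02 (SE 0.07, adjusted p = 2.09e-15) and at day 28 by 1.05 (SE 0.09). Hlf rose by 1.25 (SE 0.12) and 1.42 (SE 0.11), and at day 28 its early libraries, 17.4 to 52.8 CPM, lay below all late ones, 65.2 to 93.1. Nfil3 fell by 0.93 (SE 0.10) and 0.84 (SE 0.12), from medians of 7.62 to 3.84 and 7.64 to 4.44 CPM. The 6 kinases and ubiquitin ligases that set the stability of clock proteins gave no call on either day, with log2 fold changes between -0.05 and 0.12.

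**Figure D2:**
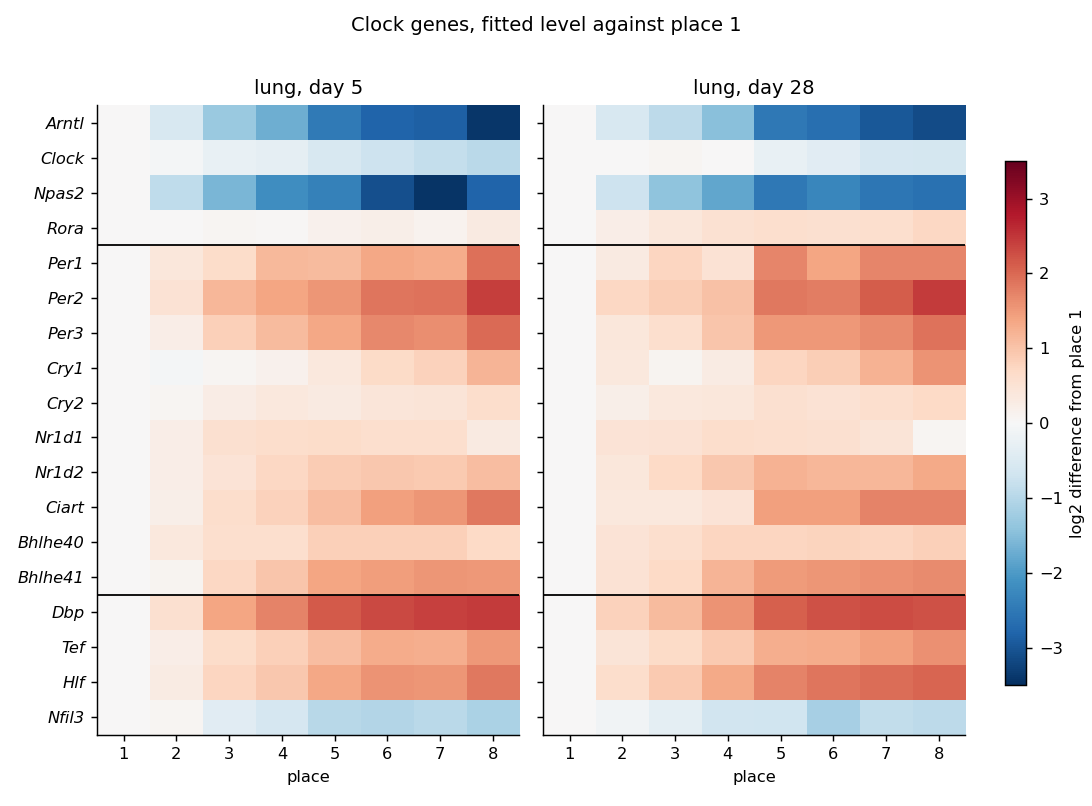
Fitted log2 level of 18 clock genes at each place against place 1, in lung at day 5 (left) and day 28 (right), red for higher and blue for lower. The colour scale ends at 3.5 on either side. Arntl, Npas2, Clock and Nfil3 turn blue and Dbp, the Per genes, Ciart, Hlf and Tef red toward place 8, and Nr1d1 is highest at the middle places.

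Between neighbouring places, few genes passed the test, in fits that were also added later. From place 2 to 3 at day 5, 9 genes rose and 5 fell, among them Dbp by 0.80 (SE 0.16), Per3, Tef and Bhlhe41 upward and Arntl by -0.76 (SE 0.12) and Rasl11a downward. From place 4 to 5 at day 28, 8 genes rose and 4 fell, among them Per1 by 1.201 (SE 0.24), Ciart by 0.96 (SE 0.17), Usp2 and Wee1 upward and Arntl by -1.05 (SE 0.22), Fam124b and Leo1 downward. Arntl and Leo1 also fell from place 4 to 5 at day 5. The glucocorticoid-responsive genes Fkbp5, a cochaperone of the hormone's receptor, and Zbtb16, a zinc-finger repressor, had another shape: they differed among the 8 places on both days (Fkbp5 adjusted p = 0.000522 and 0.0246, Zbtb16 0.00223 and 0.0162) without a call for late against early. Fkbp5 was highest at place 8, by 1.54 and 1.58 over place 1, and stood at 0.73 and 1.51 at place 3. Zbtb16 was 2.62 and 3.06 higher at place 8 and 1.63 and 2.45 higher at place 3, with lower values between.

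Over all genes, 1178 were higher and 1120 lower at late places at day 5, and 1046 were higher and 1212 lower at day 28. Of the 15566 genes tested on both days, 511 rose and 589 fell on both, in all 7.07%. None was called in opposite directions. These 1100 genes were 47.9% of the calls of day 5 and 48.7% of those of day 28. Between places 4-5 and 1-3, 1.05% of the genes tested were called at day 5 and 13.4% at day 28, and between places 6-8 and 4-5, 0.606% and 0.754%. Most changes were small: the median size of a called change was 0.21 log2 units on both days, and 76 and 43 called genes changed at least 2-fold. Of the called genes, 646 of the 1178 that rose at day 5 were highest at place 8, and 671 of the 1120 that fell were lowest there. At places 6 and 7 these numbers were 236 and 269 for genes that rose and 203 and 205 for genes that fell. Being called for places 6-8 itself draws the extremes to those places, so these counts are no test of a trend. The early and late libraries did not overlap in 13 genes at day 5 (0.0829% of those tested) and in 3 at day 28 (0.0192%). Leo1, which encodes a subunit of the PAF1 complex of transcribing polymerase, was the 1 gene on both lists. It went from 15.6 to 33.5 CPM (median 25.1) at places 1-3 to 9.27 to 13.7 (median 11.5) at places 6-8 of day 5, and from 15.02 to 29.5 (median 24.1) to 8.91 to 13.004 (median 10.9) at day 28.

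**Figure D3:**
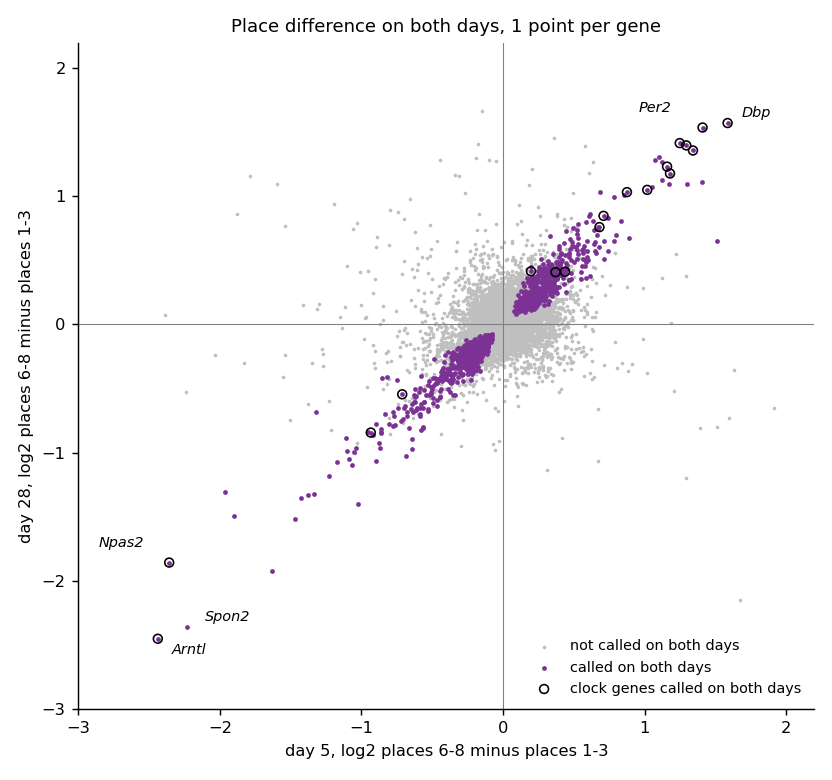
Log2 fold change between places 6-8 and places 1-3 in lung at day 5 (horizontal) and day 28 (vertical), 1 point per gene tested on both days. Of 15566 genes, 14 lie outside the axes. The 1100 genes called on both days (purple) lie in the lower left and upper right corners, and 18 of the 19 clock genes (circled) are among them.

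Beyond the clock genes, several other genes called on both days with a mean of at least 2 CPM had large falls. Spon2, a secreted matrix protein of innate immunity, went from a median of 28.4 CPM at places 1-3 to 5.58 at places 6-8 of day 5, from 24.4 to 4.46 at day 28, and fell by 2.23 (SE 0.16) and 2.36 (SE 0.19). This was a fall near that of Arntl. Fam124b fell by 1.64 and 1.92, Ccnjl, a cyclin-like gene, by 1.47 and 1.52, and Rasl11a, a small GTPase of the RAS family, by 1.34 and 1.32. Adm, the vessel-widening peptide adrenomedullin, fell by 1.23 (SE 0.13) and 1.18 (SE 0.16), from medians of 7.56 to 3.26 CPM at day 5. Eln, which encodes elastin, the fibre of elastic recoil in lung, went from 92.5 to 479 CPM (median 176) to 55.0 to 118.8 (median 78.8) at day 5, and fell by 1.17 (SE 0.13) and 1.07 (SE 0.12). Cpa3, a mast cell protease, fell by 1.07 and 1.09 and Leo1 by 1.09 and 1.05. Each of these genes was lower in 10 of 10 groups on both days.

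Among the genes that rose were Tlr12, a receptor of innate immunity, by 1.40 (SE 0.11) and 1.11 (SE 0.15), and Lingo1, known for holding back nerve fibre growth, by 1.11 (SE 0.13) and 1.31 (SE 0.15). Mthfd1l, a mitochondrial enzyme of folate metabolism, went from 4.49 to 8.85 CPM (median 6.24) to 10.7 to 18.5 (median 13.8) at day 5 with no overlap, and rose by 1.17 (SE 0.07, adjusted p = 1.26e-18) and 1.10 (SE 0.08). Tspan4, a tetraspanin of the cell membrane, rose by 1.12 and 1.13. Cyp2a5, a drug-metabolizing enzyme, rose at day 28 by 1.39 (SE 0.41, adjusted p = 0.0140), in 10 of 10 groups, with 17.7 to 660 CPM at places 6-8. At day 5 its 0.58 was not called, and Cyp2a5 has close relatives with which reads could be shared.

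Some large values at day 5 rested on 2 libraries. Lor, Krt5 and Lgals7, genes of keratinizing epithelium, had log2 fold changes of -5.33, -4.10 and -2.72. LUNG_114 (M, 300 ppm) and LUNG_090 (F, vehicle), both at place 2, held 457 and 272 CPM of Lor, and the next library 0.716. Without both, Lor had -0.45 (adjusted p = 0.215), Krt5 -1.05 (0.475) and Lgals7 -0.22 (0.797), and none was called. Prm2, a protein of sperm DNA packing, was called higher at day 5 (5.41, SE 1.29), with a highest level of 87.6 CPM in LUNG_120, 30.2 in LUNG_088 and a median of 0 over all 59. At day 28 its highest library was 162, at place 2, with 51.7 CPM, and it was not called.

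Genes were also read in lists by role. Over all genes tested, 7.52% were called higher and 7.15% lower at day 5, and 6.69% and 7.75% at day 28. In the same direction on both days, 7.07% were called. In a list of 11 to 15 genes, 1 such call is near that share. The lists and their members were chosen with earlier results of these data known, so their counts are no test against that share. Of 14 clock output genes tested, 5 rose and 3 fell on both days. That list holds Leo1 and Tspan4, named above. Usp2, a deubiquitinase, rose by 1.07 and 1.28, and Wee1, the kinase that holds back mitosis, by 0.86 and 1.01. Por, the electron donor of the cytochromes P450, rose by 0.20 and 0.32 and Fmo2, the main flavin monooxygenase of lung, by 0.52 and 0.58. Cdkn1a, the cell cycle inhibitor p21, fell by 0.78 and 0.79. Among 12 collagen and matrix genes, 7 fell at day 5 and 5 at day 28, 5 of them on both, and none rose. These were Eln, Lox, the enzyme that links elastin and collagen (-0.58 and -0.40), Fbn1, the microfibril protein fibrillin (-0.52 and -0.44), Col5a1 (-0.42 and -0.34) and Col3a1 (-0.41 on both). The median of the list was -0.25 and -0.20, beside -0.0046 and -0.0038 over all genes tested. Among 11 interferon-stimulated genes, 3 rose at day 5 and 1 at day 28. Ifit3 alone rose on both days, by 0.57 (SE 0.05) and 0.56 (SE 0.06). Of 14 genes of lipid and sterol synthesis, 4 fell at day 5 and 2 at day 28. Scd1, the fatty acid desaturase (-0.59 and -0.53), and Cyp51, an enzyme of cholesterol synthesis (-0.27 and -0.17), fell on both days. Of 12 genes of fatty acid use, 2 rose and 1 fell on each day. Cpt1a, the carrier step of mitochondrial oxidation, rose (0.22 and 0.13) and Acot1 fell (-0.27 and -0.29) on both. Of 15 NRF2 and AHR targets, 1 rose and 3 fell at day 5, and 2 rose at day 28. Gsta3 rose on both days, by 0.30 and 0.34. Cxcl5, a neutrophil chemokine, fell by 1.90 and 1.49 but at a low level, with medians of 0.606 and 0.193 CPM at day 5. Of 12 cell cycle genes Bub1 alone was called, lower on both days, and of 19 immediate early genes Klf4 alone, at day 5 (-0.38).

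Of 15 glucocorticoid-responsive genes, 2 rose at day 5 and 5 at day 28, where 7.52% and 6.69% of all genes tested did, and none fell. Tsc22d3, which encodes the anti-inflammatory protein GILZ, rose by 0.53 (SE 0.14) and 0.78 (SE 0.20), and Sult1a1, a sulfotransferase, by 0.31 and 0.40. Klf9 (0.47), Nfkbia and Pik3r1 were called at day 28 and not at day 5, and for none of them was the difference between days called. The median of the list was 0.06 at day 5 and 0.32 at day 28. Without LUNG_090 and LUNG_114, 1 gene was called at day 5, and without library 176, 6 at day 28.

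Heat shock chaperones fell at day 5, with 9 of 12 called lower, and at day 28 1 of 12 was. Over all genes tested, 7.15% and 7.75% were called lower on these days. Hspa1b, the inducible HSP70, went from a median of 24.3 CPM at places 1-3 to 8.18 at places 6-8 of day 5, with single libraries up to 372, and fell by 1.54 (SE 0.36, adjusted p = 0.00179). Reads can be shared with its near-identical copy Hspa1a. Hsph1 fell by 0.79 (SE 0.14), from medians of 80.1 to 44.4 CPM. Of 11 chaperones of the endoplasmic reticulum, 7 fell at day 5, among them Hspa5 by 0.25, and none was called at day 28. The cold-inducible Cirbp rose at day 5 by 0.39 (SE 0.08), and its 0.04 at day 28 was not called. Leaving out LUNG_098 and LUNG_139, or LUNG_090 and LUNG_114, also gave 9 heat shock genes called lower at day 5, and 8 and 5 of the reticulum chaperones. The difference between the days was called for none of these 12 genes: for Hsp90ab1 it was 0.32 (adjusted p = 0.283) and for Hspa1b 1.31 (adjusted p = 0.374).

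**Figure D4:**
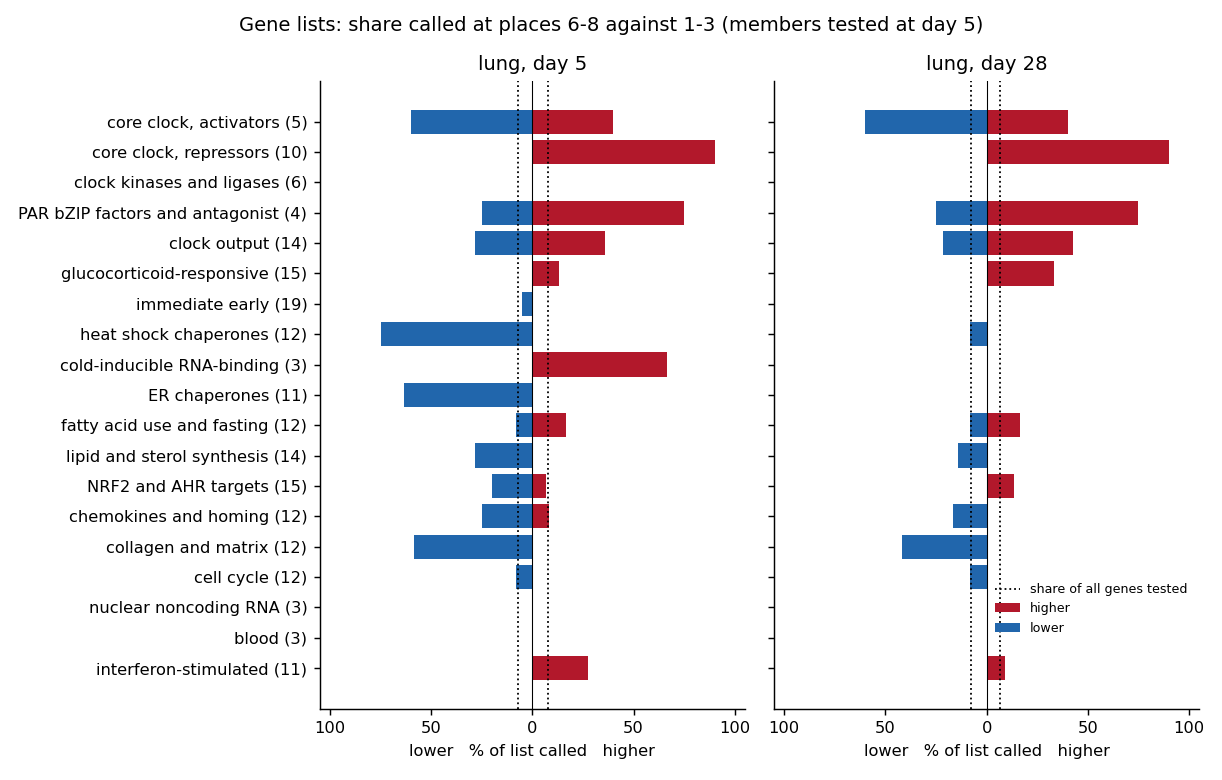
Percent of the tested members of each pathway list called higher (red, to the right) or lower (blue, to the left) at places 6-8 against 1-3, in lung at day 5 (left) and day 28 (right), with the number of members tested at day 5. Dotted lines mark the percent of all genes tested that were called in that direction, 7.52 and 7.15 at day 5 and 6.69 and 7.75 at day 28. The lists of clock activators, clock repressors, D-box factors, clock output, and collagen and matrix stand beyond a line on both days. So do those of glucocorticoid-responsive genes, lipid and sterol synthesis, chemokines, fatty acid use, interferon-stimulated genes and cell cycle, on 1 or both days with only 1 or 2 calls. The heat shock list and that of the endoplasmic reticulum chaperones stand far beyond a line at day 5. At day 28 the heat shock list passes the same line with 1 call. The lists of NRF2 and AHR targets and of cold-inducible genes also pass a line, and a short list does so with 1 call.

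Over 16 lists of cell type markers, 12 markers were called at day 5 (11.3%, where 14.7% of all genes were) and 6 at day 28 (5.77%, against 14.4%). Without LUNG_098 and LUNG_139, 18 were called at day 5 (16.98%, against 19.1% of all genes). The tissue label held: club cell markers summed to a median of 39825 CPM at places 1-3 of day 5, and hepatocyte markers to 3.55. None of 8 markers of alveolar type 1 cells was called on either day, and their summed level had medians of 10991 and 10911 CPM at places 1-3 and 6-8 of day 5 and 10549 and 11053 at day 28. Of 8 type 2 markers 1 was called, lower at day 28. Aldh1a1 rose by 0.21 and 0.32, the 1 call among 6 club cell markers on each day, with list medians of -0.07 and 0.06. Cldn5, the tight junction protein of vessels, fell by 0.25 and 0.39. It was the 1 call among 8 endothelial markers on each day, with a list median of -0.02 on both. Inmt, of the fibroblast list (medians -0.12 and 0.02), rose by 0.23 and 0.16. Upk1b, of the mesothelial list (medians -0.18 and -0.19), fell by 0.22 and 0.19. Called lower on 1 day were Pdgfra of fibroblasts (-0.22), Wt1 of mesothelium (-0.54) and Foxj1 of ciliated cells (-0.29) at day 5, and Mmp9 of neutrophils (-0.34) at day 28. In these bulk samples, fewer cells of a type and less RNA per cell cannot be told apart. Of 9 T and NK cell markers, 4 rose at day 5, among them Cd8a by 0.43 (SE 0.09) and Cd3e by 0.32 (SE 0.09), and none at day 28. Their sum ran from 48.7 to 108.5 CPM (median 81.9) at places 1-3 and from 54.8 to 146.3 (median 95.9) at places 6-8 of day 5, and had medians of 78.6 and 79.1 at day 28. Skeletal muscle markers had a median change of -1.30 at day 5 and 0.79 at day 28, with 1 call, and of 0.08 and 0.19 without LUNG_090 and LUNG_114 or library 176. The sum of the adipocyte markers ran from 20.4 to 7753 CPM at places 1-3 and from 20.2 to 1845 at places 6-8 of day 5, with no call. Its part in the falls of Scd1 was not tested.

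The change with place was also compared between the sexes and between the days. At day 5, no gene's change differed between the suffixes (0% of 15675, edgeR), 1433 had an unadjusted p under 0.05 and DESeq2 gave 0. Arntl had -2.45 in the F groups and -2.41 in the M groups, a difference of -0.04 (SE 0.36). Dbp differed by 0.21 (SE 0.32). At day 28, 2 genes differed (0.0128%): Clca1 (12.1) and Chil4 (7.88), genes of mucous cells and of type 2 inflammation. Libraries 191, 222 and 176, all F and at places 6-8, held 352, 266 and 203 CPM of Clca1, and the next library 72.2. Without the 3, no gene was called. Arntl and Dbp differed by 0.19 (SE 0.38) and -0.26 (SE 0.36) between suffixes at day 28. Between the days, 3 of 16047 genes differed (0.0187%), Krt4, Krt13 and Myh1, and none without LUNG_090, LUNG_114 and library 176. For Arntl the difference between days was -0.01 (SE 0.26) and for Dbp -0.01 (SE 0.24). None of the 19 clock genes differed between the suffixes on either day or between the days.

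In liver of the same experiment, with 60 libraries on each day, the change with place differed from that in lung in 2469 of 16126 genes at day 5 (15.3%) and in 2556 of 16147 at day 28 (15.8%). Among the 19 clock genes, 9 differed at day 5 and 9 at day 28. Arntl fell less in lung, with -2.44 against -3.77 in liver at day 5 (difference 1.33, SE 0.34, adjusted p = 0.00284) and -2.46 against -3.56 at day 28 (difference 1.11, SE 0.37, adjusted p = 0.0298). Clock also fell less in lung, with -0.71 against -1.32 at day 5. Ciart rose by 1.29 in lung and 3.53 in liver at day 5 and by 1.39 and 3.01 at day 28, the largest gap of a clock gene on both days. Per1 rose less in lung as well, by 1.16 against 2.39 at day 5. In contrast, Cry1 rose more in lung, by 0.87 against 0.17 and by 1.03 against 0.31, and Hlf by 1.25 against 0.67 and by 1.41 against 0.61. Nr1d1 was 0.21 in lung and -0.53 in liver at day 5, and 0.05 and -0.84 at day 28, and these differences were called (0.74, SE 0.16, and 0.89, SE 0.17). For Dbp the difference was -0.33 (SE 0.28) and 0.01 (SE 0.28) and was not called.

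**Figure D5:**
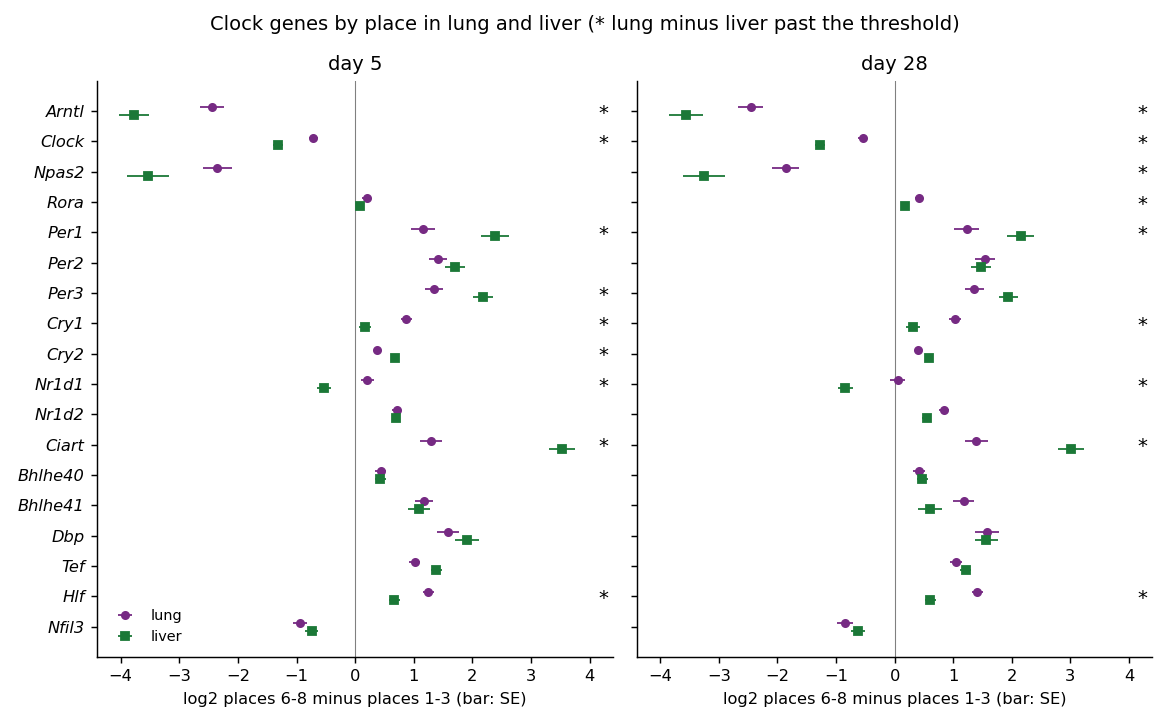
Log2 fold change between places 6-8 and places 1-3 of 18 clock genes in lung (purple circles) and liver (green squares) at day 5 (left) and day 28 (right), with the standard error as a bar. Stars mark the genes whose change differed between the tissues, 9 on each day. Arntl, Clock and Ciart move farther in liver, and Cry1 and Hlf farther in lung.

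Of the 634 and 735 genes called in both tissues at days 5 and 28, 14.4% and 16.2% had opposite signs. For 2 genes named for their small adjusted p of the difference, the change lay in liver: Slc34a2, a phosphate carrier, fell by 2.64 in liver at day 5 and had -0.01 in lung, and Insig2, which holds back sterol synthesis, fell by 1.44 in liver at day 28 and had 0.02 in lung.

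The doses did not fall on the same places, so the highest dose was compared with vehicle with place in the model. At day 28 the titles and the other labels disagree on dose or sex in some blocks, and the values follow the titles. None of the 19 clock genes was called at 2500 ppm in either sex on either day, with or without place in the model. For Arntl the standard error was 0.31 to 0.33 with place and 0.69 to 0.72 without. At day 5, 3 genes were called in males (0.0191%), Clec14a (0.44), Actg1 (-0.42) and Cnr2 (0.47), and 4 in females (0.0255%), Cyp1b1 (0.96), Ces1g (1.09), Nqo1 (0.92) and Foxn4 (1.46). Nqo1, the quinone reductase induced by NRF2, was also called at day 28, with 0.62 (SE 0.13) in males and 0.72 (SE 0.13) in females, among 7 (0.0447%) and 12 (0.0767%) genes. Without place in the model, 0, 5, 2 and 19 genes were called. In males, no gene was called at day 5 without LUNG_082, LUNG_083, LUNG_146, LUNG_147 or LUNG_150, each left out alone, nor at day 28 without library 161, 162, 164, 167, 225, 229 or 231. Leaving out 1 library called up to 0.978% of the genes in females at day 28 (without vehicle library 169) and none without their vehicle library 176 or their 2500 ppm library 237.

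Library 194 was the 1 early library of day 28 with clock genes at late levels: 3.64 CPM of Arntl, where the next lowest early library had 10.8, 181 of Dbp, 484 of Tef and 127.8 of Per3. Library 217 (F, 1250 ppm, place 1) had 11.1 CPM of Arntl and 100.8 of Dbp. Of its counts, 8.19% were of the ribosomal RNA gene Rn45s, the highest share at day 28, where the median was 1.72%. Its total of 11692340 was the lowest of that day. Whether this bears on its clock genes was not tested. Without library 194, 1041 genes rose and 1052 fell at day 28. Without library 217, 1041 rose and 1058 fell, and without LUNG_098 and LUNG_139, 1388 rose and 1603 fell at day 5. The fitted level of Arntl also varied among the groups once place was in the model, and this spread was not tested. At day 5 the 5 F groups had fitted levels of Arntl 0.11 to 0.29 log2 units above the mean of the groups and 4 of the 5 M groups 0.23 to 0.34 below it. At day 28 the groups ran from -0.36 to 0.52.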

How the data were processed

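Lung RNA was sequenced from TruSeq Stranded mRNA libraries, per the labels' protocols. The submitters' processing notes name mm10 as the build, and HTSeq, Bowtie2, SAMtools and Trimmomatic as tools of the authors. For versions, annotation and strand setting the sources used here give nothing. Each deposited table holds raw counts of reads for 24421 symbols, 1 table for each tissue and day, with no normalization. One further column of the day 28 lung table, which has no name, was not used (columns not used: 1). No 2 libraries were identical.

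Groups follow the titles. At day 28 titles and characteristics disagree on dose or sex in some blocks. Each block is the same set of 6 libraries either way, so the place contrast is unaffected. The suffix matched the level of Xist and of Y-linked genes in 59 of 59 and 60 of 60 libraries.

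Each table was fitted with edgeR 4.0.16 (R 4.3.3): filterByExpr on the 10 groups of dose and suffix, TMM scaling, robust quasi-likelihood, 1 mean per group and place in 3 classes (1-3, 4-5, 6-8). Benjamini-Hochberg adjustment ran over all genes tested, threshold 0.05. SE is the size of the log2 fold change over the square root of F. Differences between suffixes, days and tissues were tested as interactions in joined fits, lung and liver with no block. The order of collection is an assumption of the comparison, not a label.

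The rule for named genes took the 19 clock genes (1 is not reported here), the 8 highest and 8 lowest mean changes called on both days at a mean of at least 2 CPM, up to 3 further per direction and day, up to 4 called members of a list by adjusted p, and the top 4 of each difference by adjusted p. Gene lists were 19 for pathways and 16 for cell types. Members, lists, tests and rules were chosen with earlier results of these data known. Chosen after values were seen were the fits without LUNG_090, LUNG_098, LUNG_114 and LUNG_139 of day 5 and 176, 191, 194, 217 and 222, place in 8 levels, the letter patterns, and the lists described and list members beyond 4. Alternatives were DESeq2 1.42.0, RLE size factors, no low-count filter, single groups or doses, and the number as a block. On simulated day 5 data (15623 genes), recovery was 98% for changes of 1.5-fold and 100% for 2-fold or 4-fold, and 5.26% of 209 calls were unchanged genes. Genes changed only in F counted as changed. The changes were set in genes of higher level only, with no differences among the groups. None was under 1.5-fold, so recovery of smaller changes, such as most of those called here, was not tested. Coordinates of genes are from GENCODE M21 (GRCm38) and promoters from RefSeq (GRCm38.p6).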

Additional observations from a re-analysis of the deposited data

Results flagged for a closer look

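In the 9 genes examined by place, 12 groups of libraries of 1 place and day (8.33% of those looked at) held a library far from the others of its place, where chance gives about 1 in 20. At place 2 of day 28 this was library 194, with 181 CPM of Dbp, 484 of Tef and 127.8 of Per3. At place 1 of day 28, library 217 had 100.8 CPM of Dbp. Library 236 at place 4 of day 28 had 23.4 CPM of Spon2 and 22.99 of Rasl11a, and library 240 at place 8 had 6.94 of Spon2 and 409 of Nr1d1. Single values were 12.8 CPM of Arntl in LUNG_092 at place 4 of day 5, and at day 28 91.8 of Hlf in library 197 at place 5, a low 60.9 of Per3 in library 171 at place 3 and a low 0.786 of Ccnjl in library 181 at place 5. The 9 genes were read in the same libraries, so the 12 groups are not independent. Whether they are more than chance gives was not tested.

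The change with place differed between the suffixes in 2 genes at day 28, Clca1 (12.1 on the log2 scale, F minus M) and Chil4 (7.88), which were highest in libraries 191, 222 and 176. It differed between the days in 3 genes, Krt4 (9.46, day 28 minus day 5), Krt13 (8.54) and Myh1 (7.46). LUNG_114 and LUNG_090 of day 5 held 2026 and 1190 CPM of Krt4, and the next library 2.76.

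Between lung and liver, 2469 genes differed at day 5 and 2556 at day 28. Those with the smallest adjusted p at day 5 were St5 (1.61, lung minus liver), Asap2 (1.69), Pnkd (1.16) and Slc34a2 (2.63), and at day 28 Marveld1 (-0.93), Insig2 (1.47), Clpx (1.501) and Caprin1 (0.72).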

How the results depend on the processing

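Counts of called genes moved by over 1.5 times in some subsets of the libraries: they were 1169 at day 5 with only 0, 150 and 300 ppm, 565 and 230 at days 5 and 28 with only 1250 and 2500 ppm, 644 and 970 with only the F groups, and 873 at day 28 with only the M groups. Leaving out 1 group of dose and sex gave 1702 to 2499 calls at day 5 and 1525 to 3051 at day 28. Without the libraries high in muscle and keratin genes, 1929 and 2368 genes were called. Cyp51 at day 28 went from -0.17 to 0.032 with only 1250 and 2500 ppm; the cause was not tested.

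The F minus M difference at day 28 had 16 calls with DESeq2, 0 with only places 1-3 and 6-8 and 0 without libraries 176, 191 and 222. The difference between days had 0 calls with DESeq2, 18 with no low-count filter, 8 with only places 1-3 and 6-8 and 0 without LUNG_090, LUNG_114 and library 176. With the number as a replicate block, lung against liver had 1014 calls at day 5 and 1403 at day 28, of which 985 and 1309 were among the 2469 and 2556 without it. The numbers were not taken as pairs: of 42 lung and liver pairs at day 5, deviations correlated at over 0.1 in 16, and of 46 at day 28 in 20, and 3 and 6 libraries correlated best with their own number.

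At 2500 ppm, DESeq2 called 0.0893%, 0.0766%, 0.153% and 0.377% of the genes tested (M and F at day 5, M and F at day 28). With no place term these were 0%, 0.0319%, 0.0128% and 0.121%, with place as a number 0%, 0.0383%, 0.0128% and 0.121%, and with no low-count filter 0.0891% in F at day 28. Leaving out 1 library gave 0% to 0.0192%, 0.0127% to 0.0319%, 0% to 0.0699% and 0% to 0.978%. The number of calls moved by over 1.5 times without LUNG_146, LUNG_147, LUNG_150, LUNG_151, LUNG_082, LUNG_083 or LUNG_086 (M, day 5), LUNG_153 (F, day 5), any of the 12 but 227 and 166 (M, day 28) and any but 170 (F, day 28).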
